A study of Mus musculus with 23 samples.

Results

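Gene expression in round spermatids, the haploid cells that follow the meiotic divisions, was compared with that in diplotene spermatocytes, the last cells of the first meiotic prophase. Arrays were chosen by their titles: 4 titled Round Spermatids and 2 titled Diplotene, 6 of the 23 arrays of the series. The question was which RNAs differ on either side of both meiotic divisions. All 6 arrays held RNA of germ cells sorted by flow cytometry from the testes of male F1 hybrids of the strains C57BL6 and DBA2J, aged 10 to 16 weeks. Sorting used the DNA dye Hoechst 33342. The labels name no mutation or treatment for these mice; the 3 Spo11-/- arrays of the series were not used here. The labels call the arrays biological replicates and do not say whether round spermatids and diplotene cells came from the same animals or how many were pooled. The RNA was measured in bulk, so fewer cells of a type and less RNA per cell cannot be told apart.

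Diplotene spermatocytes have finished recombination, desynapse their homologous chromosomes and prepare for division. Round spermatids are transcriptionally active: they build the acrosome, the enzyme-filled vesicle over the sperm nucleus, lay down the flagellum, and store RNAs for the transition proteins and protamines that later replace histones. The X and Y chromosomes are silenced together in pachytene in a chromatin domain called the sex body, and in mice much of the X stays repressed in round spermatids while a set of postmeiotic genes becomes active.

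Levels are log2(intensity + 1) of one probe set per gene, and changes are fitted log2 differences, round spermatids minus diplotene, ± SE. “Rose” and “fell” are used of genes with a limma p below 0.05, Benjamini-Hochberg adjusted over all 13087 genes tested, and a change of at least 1. Where every array of a group was below log2 4, the gene was not above background there, and a bound is added: the other group's mean minus 4. Of the 60 genes given as risen or fallen that have further probe sets, 32 had at least 1 other that passed the same way and 28 had none. Among the 28, those of Lrrc52, Kif23, Col1a2, Asz1, Atr, Exo1, Naa40 and Sirt5 lay the same way without passing and are not given below. The 6 arrays had median intensities of 11.4 to 12.6 and 44.9% to 46.1% of their probe sets at log2 4 or more. Round spermatid arrays correlated with one another at Pearson r of 0.94 to 0.99 across genes and the 2 diplotene arrays with each other at 0.97, against 0.89 to 0.93 between the groups. Diplotene replicate 1 lay farther from round spermatid replicates 2, 3 and 4 (0.89 to 0.90) than diplotene replicate 2 did (0.92 to 0.93). Leaving out either diplotene array leaves 1 in that group, which raises the SE for the same spread. A call lost in such a fit can therefore go with an unmoved change. Without diplotene replicate 1 the change of Akap4 went from 2.48 to 2.49 and that of Lrrc52 from 2.77 to 1.37.

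The labels were set against marker genes. Of 13 round spermatid markers, 10 rose and none fell (median change 2.26), where 12.5% of all genes tested rose; 5 of the 13 rose without diplotene replicate 1 and 6 without diplotene replicate 2. Of 14 late prophase markers none passed in either direction (median −0.15). Hspa2, a chaperone of meiotic prophase, stood at 13.49, 14.06, 13.93 and 14.70 in round spermatids and at 14.11 and 13.93 in diplotene, and Ldhc, the germ cell lactate dehydrogenase, at 15.44, 15.27, 15.42 and 15.59 in round spermatids and at 15.41 and 15.45 in diplotene. The groups overlapped for both genes, so these 2 RNAs of late prophase do not set the fractions apart here. Among 15 spermatogonial and preleptotene markers, Id4 (−2.31 ± 0.61) and Dnmt3b (−2.02 ± 0.61) fell and none rose, where 12.0% of all genes tested fell. Id4 averaged 7.59 in spermatogonia and 7.19 in pre-leptotene, against 12.07 in mid pachytene and 12.16 in the single late pachytene array. Its fall is therefore not a measure of early cells here. The median change of the 15 was −0.57. Their summed intensity was 10050 to 15150 in round spermatids and 13590 to 14990 in diplotene, and 3 of the 15 lay below log2 4 on all 6 arrays. Without round spermatid replicate 1, 5 of the 15 fell, and 4 did after median centring. Dnmt3b no longer passed once diplotene replicate 1 was left out (adjusted p 0.204). Id4 lost the call without diplotene replicate 2 (0.109). Dnmt3b did so without round spermatid replicate 2 (0.0502).

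Markers of somatic cells differed between arrays. Of 9 peritubular and stromal markers tested, 3 rose: Dcn, for the matrix proteoglycan decorin (3.94 ± 1.16, adjusted p 0.0191), and the collagen genes Col1a2 (2.88 ± 0.79, at least 2.61) and Col3a1 (2.40 ± 0.80). All 9 were higher in every round spermatid array than in both diplotene arrays (median change 1.38, or 1.30 with bounds). Of all genes tested 21.8% were higher in this way, and 12.5% rose. The summed intensity of the stromal markers was 1204 to 1665 in round spermatids and 399 to 406 in diplotene. Of the 11 on the array, 3 lay below log2 4 in all round spermatid arrays and 6 in both diplotene arrays. The 10 Sertoli cell markers tested had a median level of 7.01, 5.66, 4.78 and 4.12 in round spermatids and of 7.29 and 5.37 in diplotene, highest in replicate 1 of each group, and none passed (median change −0.73). Their summed intensity was 693 to 9635 in round spermatids and 1994 to 8903 in diplotene, with Clu at 12.38, 11.43, 9.87 and 8.56 in round spermatids and at 12.26 and 10.13 in diplotene. No Leydig cell marker of 5, endothelial marker of 4 or red blood cell marker of 1 passed; their median changes were 0.45 (0.09 with bounds), 0.31 and 0.03. Of 11 macrophage and leukocyte markers the macrophage gene Adgre1 alone passed (1.05 ± 0.37, at least 0.72; summed intensity 129 to 182 in round spermatids and 114 to 116 in diplotene), and 6 lay below log2 4 on all 6 arrays. Their part in the changes below was not tested. Dcn, Col1a2, Col3a1 and Adgre1 did not pass without diplotene replicate 1, with changes of 4.50, 2.70, 2.35 and 0.92. They lost the call without diplotene replicate 2 as well, with changes of 3.37, 3.06, 2.45 and 1.185. Col3a1 did so without round spermatid replicate 1 (adjusted p 0.0562). Col3a1 and Adgre1 lost the call without round spermatid replicate 2 (0.0684 to 0.0783). Adgre1 did so without round spermatid replicate 3 (0.0864). Adgre1 lost the call without round spermatid replicate 4 (0.0776).

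Of the 13087 genes tested, 3199 (24.4%) changed: 1633 (12.5%) rose and 1566 (12.0%) fell. The median change over all genes was −0.01 and the median SE 0.38. Changes of at least 2 on the log2 scale were more often rises, 916 genes (7.00%), than falls, 438 genes (3.35%). This balance is not free of the filter. Of 1735 autosomal genes averaging below log2 4 in spermatogonia, 523 reached the filter level only with round spermatid arrays, which leaves little room to fall. Of the 1735, 452 rose and 125 fell. Of the 1212 that reached it in other arrays, 205 rose and 125 fell. The 2 groups of arrays did not overlap for 5620 genes (42.9%), among them 2996 of the 3199. Of the genes that rose, 290 were below log2 4 in both diplotene arrays, and 149 of these reached it in all 4 round spermatid arrays; of those that fell, 89 were below log2 4 in all round spermatid arrays, and 71 of these reached it in both diplotene arrays. Without diplotene replicate 1, 840 genes rose and 850 fell, and without diplotene replicate 2, 1172 and 1579 did. Leaving out a round spermatid array instead gave 1401 to 1751 rises and 1401 to 1749 falls.

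**Figure D1:**
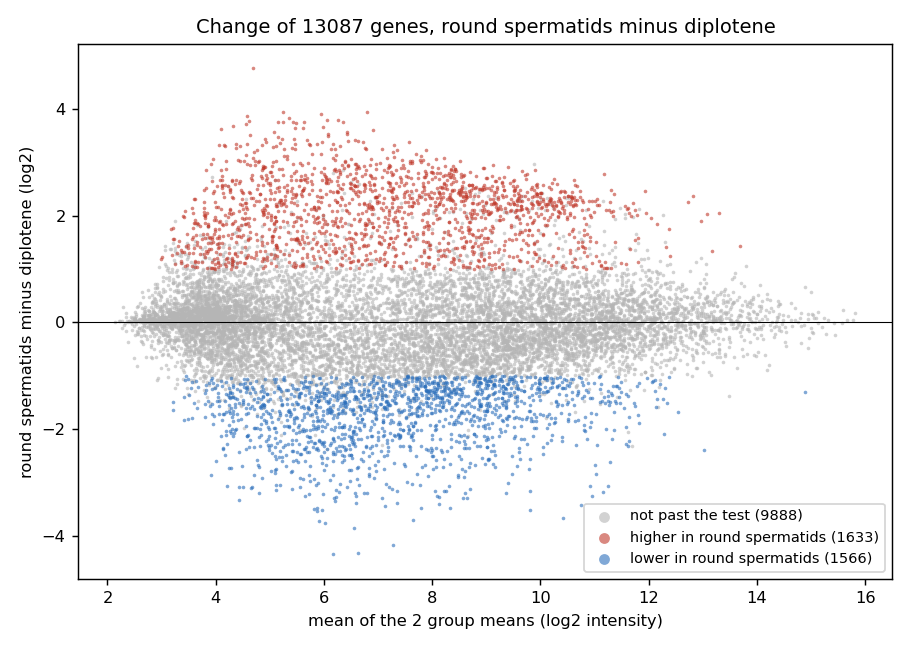
Each point is one of 13087 genes; the x axis is the average of its mean log2 intensity in round spermatids and in diplotene, the y axis the fitted log2 change, round spermatids minus diplotene. Red points are the 1633 genes that rose and blue points the 1566 that fell; the largest changes were a rise of 4.76 and a fall of −4.35.

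The largest rises were of genes with little or no signal in diplotene. Dct, which encodes the melanin enzyme dopachrome tautomerase, stood at 6.48, 7.45, 7.62 and 6.76 in the 4 round spermatid arrays and at 2.25 and 2.37 in the 2 diplotene arrays, which are not above background. It rose by 4.76 ± 0.28 (adjusted p 4.44e-08), a rise of at least 3.08, and the groups lay far apart. Limch1, encoding an actin-binding protein with LIM and calponin homology domains, stood at 7.00, 7.30, 7.14 and 7.63 in round spermatids and at 3.04 and 3.84 in diplotene (at least 3.27). The homeobox gene Nkx2-6 stood at 8.39, 8.85, 8.82 and 6.57 in round spermatids and at 4.07 and 4.65 in diplotene (3.80 ± 0.52). Mcu, the pore of the mitochondrial calcium uniporter, stood at 8.38, 7.61, 7.73 and 6.35 in round spermatids and at 4.12 and 3.38 in diplotene (3.76 ± 0.66; second probe set 0.53, adjusted p 0.381). In each of these genes every round spermatid array was higher than both diplotene arrays, while round spermatid replicate 4 was the lowest of its group for Nkx2-6 and Mcu. The others among the 10 largest were Dcn, the chaperonin-like Cct8l1 (3.92 ± 0.67), Fam187a (3.87 ± 0.87, at least 2.52), Ccdc182 (3.79 ± 0.57), Gsap, the gamma-secretase activating protein (3.77 ± 0.50), and the X-linked Actrt1 (3.76 ± 1.02, at least 3.03), an actin-related protein of the sperm head. Fam187a stood at 7.59, 7.70, 7.63 and 3.13 in round spermatids, so replicate 4 was near the diplotene level of 2.50 and 2.79. Replicate 4 was itself below log2 4, so 2.52 is not a strict bound for Fam187a. The SD of Fam187a in round spermatids was 2.255, beside an SE of 0.87 that shares its spread with other fractions. Outside round spermatids, Dct averaged 2.22 in spermatogonia and Limch1 3.16, both below log2 4. Actrt1 no longer passed once diplotene replicate 1 was left out (adjusted p 0.106). Actrt1 lost the call without diplotene replicate 2 (0.0503).

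The largest falls included a crossover gene and RNA-processing and chromatin genes. Ccnb1ip1, whose product HEI10 is a ubiquitin-ligase-family protein needed for crossovers, stood at 4.58, 4.83, 4.44 and 4.63 in round spermatids and at 8.72 and 8.24 in diplotene, a fall of −3.86 ± 0.22 (adjusted p 4.44e-08). The groups lay far apart, and the 4 round spermatid arrays close together. Exosc7, a subunit of the RNA exosome, stood at 4.71, 4.97, 3.15 and 3.15 in round spermatids and at 8.77 and 7.92 in diplotene, and fell by most of all (−4.35 ± 0.47). Sirt7, a nucleolar deacylase of the sirtuin family, stood at 5.93, 5.21, 2.71 and 3.01 in round spermatids and at 7.90 and 7.55 in diplotene (−3.51 ± 0.68), with replicates 3 and 4 of round spermatids below log2 4. The other large falls were of Tm2d3 (−4.32 ± 0.47), the leucine-rich repeat membrane protein gene Elfn2 (−4.18 ± 0.80), the lipid-transfer gene Osbpl8 (−3.76 ± 0.68), the glycosidase gene Myorg (−3.71 ± 0.34), Rnf2, for the Polycomb ubiquitin ligase RING1B (−3.71 ± 0.55), Smim7 (−3.54 ± 0.40) and the zinc finger gene Zfp389 (−3.52 ± 0.60). A second probe set of Rnf2 did not fall (0.49, adjusted p 0.458). Elfn2 and Zfp389 had averaged 2.56 and 4.51 in spermatogonia and 9.47 and 10.95 in mid pachytene, so their RNAs were highest within the meiotic prophase among these fractions and lower after it.

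RNAs for the proteins that repackage the spermatid nucleus were higher in round spermatids throughout. All 11 measured spermatid chromatin genes had every round spermatid array above both diplotene arrays (21.8% of all genes did); 7 rose, none fell, and the median change was 2.18. Tnp2, one of the transition proteins that displace histones, stood at 14.52, 13.46, 13.94 and 14.03 in round spermatids and at 11.55 and 11.70 in diplotene (2.36 ± 0.54, adjusted p 0.0041). Prm2, a protamine of mature sperm chromatin, stood at 14.52, 13.50, 13.87 and 13.80 in round spermatids and at 12.27 and 11.78 in diplotene (1.90 ± 0.44, adjusted p 0.00472). Round spermatid replicate 1 was the highest array for both. Tnp1 (2.04 ± 0.46), Prm1 (1.43 ± 0.39), the spermatid linker histone genes H1f7 (2.20 ± 0.67) and Hils1 (2.06 ± 0.67) and Hmgb4, a testis high-mobility-group protein (2.18 ± 0.65), also rose. A second probe set of Tnp1 gave 0.75 and did not pass (adjusted p 0.312). Prm3 (2.04 ± 0.76, adjusted p 0.0551) and the spermatid histone variants H2bl1 (2.30 ± 1.01), H2ap (2.31 ± 0.95) and H2al2a (2.34 ± 0.87) did not pass, whereas all 11 rose in a fit on the 6 arrays alone. These RNAs were already well above background in diplotene, and in spermatogonia too: Tnp2 averaged 13.81 and Prm1 14.78 in spermatogonia, against 10.57 and 12.70 in the single late pachytene array. Hils1 and Hmgb4 averaged 10.56 and 11.87 in spermatogonia and were lowest in pre-leptotene, at 8.06 and 8.70. The source of this signal in spermatogonia was not tested. Of 3 histone genes of meiosis none passed; H2ax, the histone of the sex body, stood at 9.40, 10.00, 10.00 and 9.98 in round spermatids and at 10.48 and 10.18 in diplotene (−0.48 ± 0.26). Without diplotene replicate 1, 4 of the 11 spermatid chromatin genes rose (median 2.19), and without diplotene replicate 2, 2 did (median 2.04). H1f7, Hils1 and Hmgb4 did not pass without diplotene replicate 1 (adjusted p 0.111 to 0.133). Prm2, Prm1, H1f7, Hils1 and Hmgb4 lost the call without diplotene replicate 2 (0.0554 to 0.137). H1f7 and Hils1 did so without round spermatid replicate 1 (0.0506 to 0.0596). Hils1 lost the call without round spermatid replicate 2 (0.0575). Hils1 did so without round spermatid replicate 3 (0.0546).

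**Figure D2:**
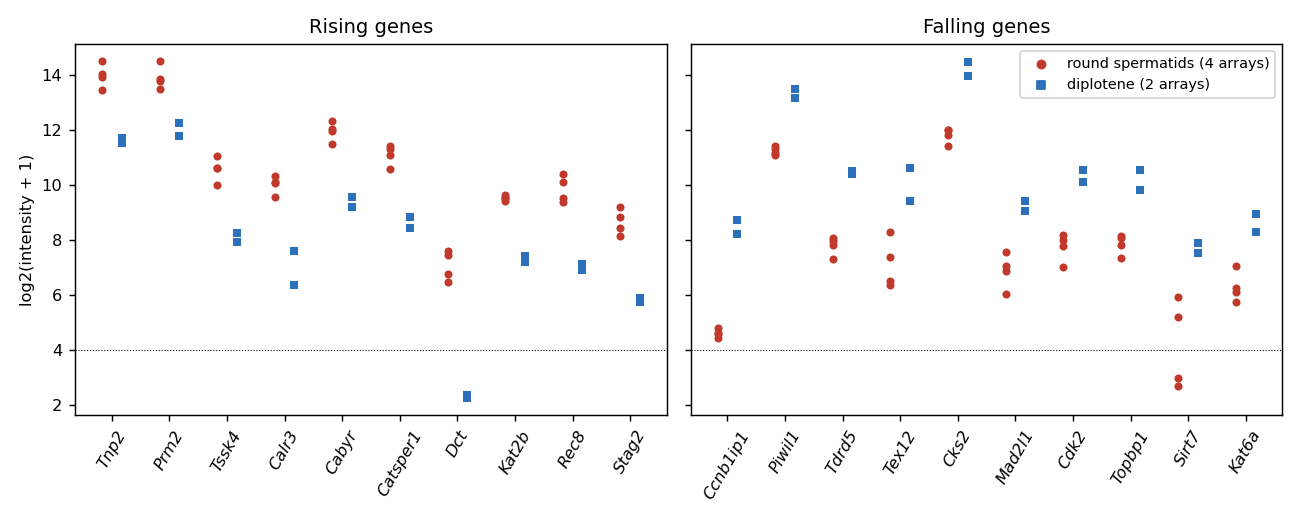
Log2(intensity + 1) of 10 genes that rose (left panel) and 10 that fell (right panel); red circles are the 4 round spermatid arrays, blue squares the 2 diplotene arrays, and the dotted line is log2 4. For all 20 genes the groups do not overlap, and diplotene signal is below the line for Dct alone.

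Promoters were set beside these changes, because many spermatid genes are known targets of CREM, an activator that binds the cAMP response element, TGACGTCA. RefSeq windows of GRCm38.p6, from 250 bases before to 50 after each start site, covered 10639 of the genes tested: 1322 that rose and 1295 that fell. A variant, TGATGTCA, which differs from the element by C4T (positions from 1 at the 5′ end), was chosen after the promoters of spermatid genes had been seen. On either strand, it was present in 108 of the genes that rose (8.17%), in 16 of those that fell (1.24%) and in 306 of all 10639 (2.88%); of all 32851 windows in the table, 3.62% held it. Anywhere in a window, it was found for 8 of 30 acrosome genes, 7 of 22 sheath and fibre genes and 2 of 11 spermatid chromatin genes with a window. Of the testis-specific serine kinases and their substrate 0 of 6 held the motif. Of the CatSper, pH and cAMP signalling genes 0 of 11 held the motif. The 6 stretches that follow show it in capitals, on the gene's strand, in genes of 5 kinds that rose: chromatin packaging (Tnp1 and Hmgb4), energy (Gapdhs), the largest rises (Ccdc182), histone acetylation (Kat2b) and the X-linked sheath (Akap4). In Hmgb4 the motif lies on the opposite strand, so the capitals are its reverse complement. The Gapdhs stretch holds a second copy, left in lower case, on the opposite strand 76 bases before the start site.
Tnp1, chr1:73015946-73016033, minus strand: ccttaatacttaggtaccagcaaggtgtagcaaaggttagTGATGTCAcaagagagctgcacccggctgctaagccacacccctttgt
Hmgb4, chr4:128260922-128261009, minus strand: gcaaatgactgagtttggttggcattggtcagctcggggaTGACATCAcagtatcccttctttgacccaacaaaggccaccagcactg
Gapdhs, chr7:30743728-30743815, minus strand: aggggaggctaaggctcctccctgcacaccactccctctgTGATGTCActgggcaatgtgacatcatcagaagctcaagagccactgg
Ccdc182, chr11:88293955-88294042, plus strand: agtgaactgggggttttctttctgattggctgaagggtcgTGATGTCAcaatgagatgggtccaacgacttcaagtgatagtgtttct
Kat2b, chr17:53584044-53584125, plus strand: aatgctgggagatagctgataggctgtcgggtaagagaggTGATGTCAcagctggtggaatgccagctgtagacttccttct
Akap4, chrX:7067440-7067514, plus strand: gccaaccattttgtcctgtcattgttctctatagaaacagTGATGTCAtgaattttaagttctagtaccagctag
The table lists 1 to 9 windows for a gene tested, on average 1.32 for genes that rose and 1.21 for those that fell, and a gene was counted if any of its windows held the motif. The start sites shown for Gapdhs and Kat2b lie inside their genes, 1110 and 17352 bases from the outer end, and that of Kat2b is the second of the 2 listed. Counted to these listed starts, the motif began 94 bases before the start site in Tnp1, 74 in Hmgb4, 94 in Gapdhs, 48 in Ccdc182, 42 in Kat2b and 35 in Akap4.

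Other motifs were searched on both strands in the same windows. The full element TGACGTCA was in 3.33% of genes that rose, 3.17% of those that fell and 3.46% of all. The pattern TGACGTNA, which includes it, was in 4.69%, 4.79% and 5.39% of the same sets, and TGACGCAA in 0.681%, 0.927% and 0.940%. The TATA sequence TATAAA was in 12.5% of genes that rose, 6.33% of those that fell and 9.00% of all. The RFX element GTTGCCATG was in 2.34%, 0.541% and 0.978%. Over all windows these shares were 1.79%, 2.93%, 0.490%, 13.6% and 0.773% in the order given. A match is a description of letters and was not tested.

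Most acrosome genes that passed rose by about 2 on the log2 scale, while several others did not pass. Of 36 tested, 20 rose and 1 fell (median change 2.14), where 12.5% of all genes tested rose and 12.0% fell. Calr3, a chaperone of the testis endoplasmic reticulum, stood at 10.12, 10.35, 10.09 and 9.57 in round spermatids and at 6.38 and 7.62 in diplotene (3.03 ± 0.70, adjusted p 0.00452). Ccin, or calicin, a protein of the sperm head cytoskeleton, stood at 10.06, 9.16, 8.97 and 8.97 in round spermatids and at 6.12 and 6.45 in diplotene (3.01 ± 0.60). Izumo1, the sperm surface protein that binds the egg, stood at 11.60, 11.98, 12.12 and 12.01 in round spermatids and at 8.58 and 10.13 in diplotene (2.58 ± 0.64). Every round spermatid array exceeded both diplotene arrays in these genes, and diplotene replicate 2 was the higher of its pair. Spaca6 (2.84 ± 0.65) and Tmem190 (2.68 ± 0.70) rose similarly. Acrv1, an acrosome marker, stood at 12.77, 13.87, 14.01 and 12.42 in round spermatids and at 10.50 and 12.03 in diplotene. All its round spermatid arrays were higher, but the gene did not pass (2.01 ± 0.81, adjusted p 0.0798). In contrast, Acr, for the protease acrosin (0.20 ± 0.72), Zpbp (0.53 ± 0.70), Acrbp (0.17 ± 0.84) and Crisp2 (0.08 ± 0.61) did not pass; a second probe set of Acrbp gave −0.13. Izumo4 alone fell (−2.19 ± 0.53). Without diplotene replicate 1, 3 of the 36 rose, and without diplotene replicate 2, 19 did. Calr3, Izumo1, Spaca6 and Tmem190 no longer passed once diplotene replicate 1 was left out (adjusted p 0.0955 to 0.156). Izumo4 lost the call without diplotene replicate 2 (0.103).

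Of 26 flagellar genes of the fibrous sheath, outer dense fibres and mitochondrial sheath, 14 rose and none fell (median change 1.88). Of all genes tested 12.5% rose and 12.0% fell. Cabyr, a calcium-binding protein of the fibrous sheath, stood at 12.33, 11.96, 12.04 and 11.50 in round spermatids and at 9.20 and 9.59 in diplotene (2.57 ± 0.45, adjusted p 5.99e-04). Akap4, the X-linked kinase anchor that is the main protein of the sheath, stood at 12.98, 12.30, 12.33 and 12.60 in round spermatids and at 10.08 and 10.07 in diplotene (2.48 ± 0.63). Both groups were clear of each other for both genes. Tbc1d21 (2.48 ± 0.73) and Spag4 (2.43 ± 0.67) rose too. Of 34 genes of the axoneme, the microtubule core, and of intraflagellar transport none rose and 4 fell (median −0.10): Dnaaf6, an assembly factor of dynein arms (−2.12 ± 0.60), and Traf3ip1 (−1.56 ± 0.26), Ift80 (−1.37 ± 0.31) and Ift20 (−1.05 ± 0.25), which encode intraflagellar transport proteins; 2 rose in a fit on the 6 arrays alone, and 1 fell without diplotene replicate 1. A second probe set of Ift80 lay the other way without passing (0.98, adjusted p 0.131). The difference between the sets of genes was not tested. With diplotene replicate 1 left out a single sheath gene rose, and without diplotene replicate 2, 6 did, with medians of 1.79 and 1.76; 8 or 9 did without round spermatid replicate 1, 2 or 3 or with no filter. Akap4, Tbc1d21, Spag4, Dnaaf6, Ift80 and Ift20 did not pass without diplotene replicate 1 (adjusted p 0.0655 to 0.207). Dnaaf6 lost the call without diplotene replicate 2 (0.0633).

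The testis-specific serine kinases, which act late in sperm formation, had a median change of 2.26 together with their substrate: 6 of 7 rose and none fell. Of all genes tested 12.5% rose and 12.0% fell. Tssk4 stood at 11.05, 10.61, 10.62 and 10.02 in round spermatids and at 7.93 and 8.28 in diplotene (2.47 ± 0.64, adjusted p 0.00936). Tssk3 (2.49 ± 0.67), Tssk2 (2.44 ± 0.73) and Tssk1 (2.26 ± 0.68) showed rises of like size, with no overlap between groups. None of the 7 rose without diplotene replicate 1 (median 2.23) and 2 did without diplotene replicate 2. Of 14 genes for the CatSper calcium channel, pH and cAMP signalling, 6 rose and none fell (median 0.69). Catsper1, a pore subunit, stood at 11.31, 11.44, 11.11 and 10.60 in round spermatids and at 8.45 and 8.83 in diplotene (2.48 ± 0.46). Catsper3, another pore subunit (2.86 ± 0.67), the sperm sodium pump gene Atp1a4 (2.51 ± 0.63) and Lrrc52, a partner of the sperm potassium channel (2.77 ± 0.84), also rose, though Lrrc52 arrays overlapped between groups. Catsper2 (0.37 ± 0.63) and the auxiliary subunit gene Catsperd (−0.83 ± 0.71) did not pass. Second probe sets of both fell, that of Catsper2 by −1.35 (adjusted p 0.0354) and that of Catsperd by −2.43 (adjusted p 5.45e-05). With probe sets averaged Catsperd fell (−1.63, adjusted p 0.00736). Of the 14, 1 rose without diplotene replicate 1. Tssk4, Tssk3, Tssk2, Tssk1, Catsper3, Atp1a4 and Lrrc52 no longer passed once diplotene replicate 1 was left out (adjusted p 0.0507 to 0.422). Tssk2, Tssk1 and Atp1a4 lost the call without diplotene replicate 2 (0.0585 to 0.0966). Lrrc52 did so without round spermatid replicate 2 (0.0539). Lrrc52 lost the call without round spermatid replicate 3 (0.0575).

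Of 20 germ cell energy enzymes 4 rose and none fell (median 0.19), against 24.4% of all genes changed; 7 rose in a fit on the 6 arrays alone, and none when either diplotene array was left out. Gapdhs, the spermatid form of a glycolytic dehydrogenase, stood at 12.55, 12.17, 11.86 and 12.03 in round spermatids and at 9.94 and 9.82 in diplotene (2.27 ± 0.63), clear of each other. The aldolase retrogenes Aldoart2 (2.27 ± 0.71) and Aldoart1 (2.19 ± 0.73) rose, as did Gpd2, for mitochondrial glycerol phosphate dehydrogenase (2.00 ± 0.54). A second probe set of Gpd2 fell (−1.84, adjusted p 0.00569), so its probe sets disagree. Of 19 genes of the manchette, the microtubule skirt that shapes the nucleus, and of nuclear envelope linkers, 4 rose and none fell (median 0.58). Lmnb2, of the lamin B family, stood at 9.76, 9.77, 8.96 and 8.06 in round spermatids and at 6.14 and 6.09 in diplotene (3.03 ± 0.60). Clip4 (2.24 ± 0.63) and Clip1 (1.98 ± 0.25), microtubule-binding proteins, and Spag4 were the others. A second probe set of Clip1 did not rise (−0.23), while its remaining ones rose by 1.73 to 2.42. Gapdhs, Aldoart2, Aldoart1, Gpd2 and Clip4 did not pass without diplotene replicate 1 (adjusted p 0.0772 to 0.142). Gapdhs, Aldoart2, Aldoart1, Gpd2 and Clip4 lost the call without diplotene replicate 2 (0.0657 to 0.197). Aldoart1 did so without round spermatid replicate 1 (0.0793). Aldoart1 lost the call without round spermatid replicate 2 (0.0574). Aldoart1 did so without round spermatid replicate 3 (0.0501).

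**Figure D3:**
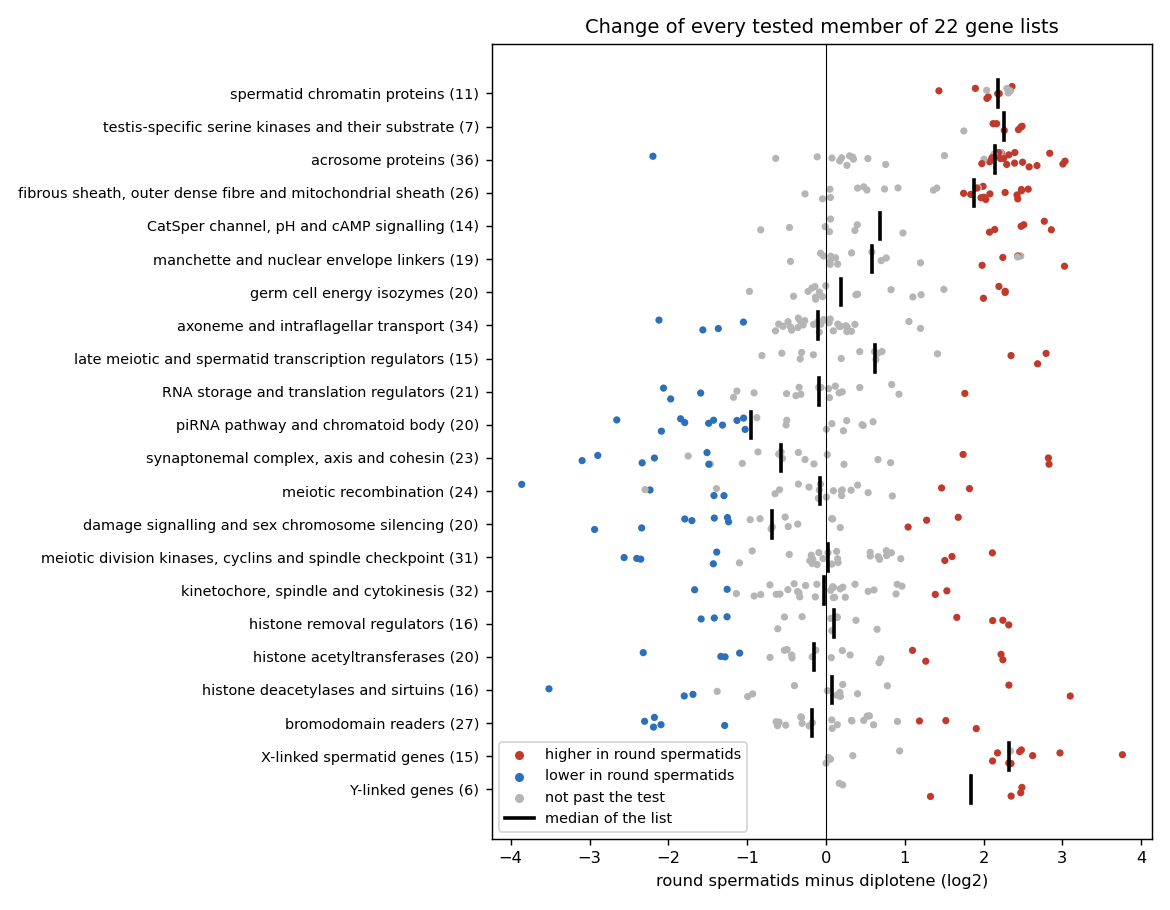
Fitted log2 change, round spermatids minus diplotene, of every tested member of 22 gene lists, with the number tested in brackets. Red points rose, blue points fell, grey points did not pass, and the black bar is the median of the list; medians run from 2.32 in X-linked spermatid genes to −0.95 in the piRNA pathway.

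Of 15 transcription regulators of late meiosis and spermatids 3 rose and none fell (median 0.62), against 24.4% of all genes changed. Crem itself stood at 11.08, 12.18, 12.66 and 12.07 in round spermatids and at 10.87 and 11.89 in diplotene, with overlap and no pass (0.62 ± 0.73), and 2 further probe sets lay the other way (−0.64 and −0.60). Its coactivator gene Fhl5, for ACT, stood at 11.53, 11.09, 11.32 and 10.70 in round spermatids and at 8.72 and 8.90 in diplotene (2.35 ± 0.61). Kif17, the kinesin that moves ACT (2.79 ± 0.62), and the transcription factor gene Sox5 (2.69 ± 0.58) rose too. Of 21 RNA storage and translation regulators 1 rose and 3 fell (median −0.09). Dazl, a germ cell RNA-binding protein, stood at 9.53, 8.36, 7.15 and 7.19 in round spermatids and at 10.40 and 9.66 in diplotene (−1.97 ± 0.49). Celf1 (−2.06 ± 0.40) and Elavl1 (−1.59 ± 0.32), other RNA-binding proteins, fell, and Paip2b, an inhibitor of poly(A)-binding protein, rose (1.76 ± 0.27). A second probe set of Paip2b gave 0.23 and did not pass (adjusted p 0.805). Fhl5 and Dazl no longer passed once diplotene replicate 1 was left out (adjusted p 0.0831 to 0.119).

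The piRNA pathway is a small-RNA defence system of germ cells. Of 20 genes for it and for the chromatoid body, where it gathers in spermatids, 10 fell and none rose (12.0% of all genes fell), with a median of −0.95. Piwil1, the MIWI protein that binds pachytene piRNAs, stood at 11.30, 11.42, 11.09 and 11.18 in round spermatids and at 13.49 and 13.18 in diplotene (−2.09 ± 0.33, adjusted p 2.80e-04). Tdrd5, a Tudor-domain protein, stood at 7.33, 8.09, 7.97 and 7.83 in round spermatids and at 10.39 and 10.53 in diplotene (−2.65 ± 0.43). Both falls were larger than the whole spread within either group. Gpat2 (−1.84 ± 0.28) and Pnldc1, the trimmer of piRNA ends (−1.79 ± 0.35), fell as well, and so did Pld6, Piwil2, Mov10l1, Tdrkh, Tdrd9 and Asz1, by −1.49 to −1.03. Mael (0.01 ± 0.26), Ddx4 (0.08 ± 0.28) and Tdrd7 (0.46 ± 0.41) did not pass. Piwil1 had averaged 7.25 in spermatogonia and 14.08 in late pachytene. Of the 20, 6 fell without diplotene replicate 1. Piwil2, Tdrkh, Tdrd9 and Asz1 did not pass without diplotene replicate 1 (adjusted p 0.083 to 0.182). Tdrd9 and Asz1 lost the call without diplotene replicate 2 (0.074 to 0.248). Asz1 did so without round spermatid replicate 1 (0.0532). Tdrd9 lost the call without round spermatid replicate 2 (0.0326, or a change under 1). Asz1 did so without round spermatid replicate 3 (0.0577). Asz1 lost the call without round spermatid replicate 4 (0.105).

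Of 23 genes of the synaptonemal complex, chromosome axis and cohesin, 6 fell and 3 rose (median −0.57), where 12.0% of all genes fell and 12.5% rose; the 3 that rose encode cohesin subunits. Tex12, a central element protein of the synaptonemal complex, stood at 8.29, 7.38, 6.52 and 6.39 in round spermatids and at 10.64 and 9.44 in diplotene (−2.90 ± 0.44). 4930447C04Rik, known as Six6os1, another central element gene, stood at 4.67, 4.49, 3.63 and 3.25 in round spermatids and at 7.14 and 7.06 in diplotene (−3.09 ± 0.44). Its 2 further probe sets gave −0.39 and −0.83, neither past the test. Sycp3, the axis protein that marks meiotic prophase, was lower in every round spermatid array, at 12.12, 12.31, 12.62 and 12.74 against 13.44 and 13.19 in diplotene, with an adjusted p of 0.0128 but a change under the minimum (−0.86 ± 0.24). Sycp1 did not pass (−0.55 ± 0.32). Rec8, the cohesin subunit of meiosis that is cleaved at the divisions, went the other way, at 10.40, 10.11, 9.54 and 9.40 in round spermatids and at 7.15 and 6.91 in diplotene (2.83 ± 0.45, adjusted p 2.98e-04). Stag2, an X-linked cohesin subunit, stood at 9.20, 8.84, 8.43 and 8.16 in round spermatids and at 5.92 and 5.76 in diplotene (2.82 ± 0.33), while a second probe set gave 0.10 (adjusted p 0.95). Smc3, a core cohesin subunit, rose by 1.74 ± 0.29, while its meiotic partners Smc1b (0.23 ± 0.24) and Stag3 (−0.27 ± 0.30) did not pass.

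Of 24 recombination genes, 4 fell and 2 rose (median −0.08), a share close to the 24.4% of all genes that changed; 2 fell without diplotene replicate 1. Besides Ccnb1ip1, Helq, a helicase (−2.23 ± 0.50), the mismatch repair gene Mlh3 (−1.42 ± 0.26) and the nuclease gene Exo1 (−1.29 ± 0.44) fell. Tex15 stood at 11.51, 10.99, 10.96 and 10.50 in round spermatids and at 9.27 and 9.07 in diplotene (1.82 ± 0.26), and Brca1 rose too (1.47 ± 0.36). Other probe sets of Brca1 gave 0.28 and 1.20 and did not pass. Spo11, which makes the breaks, did not pass (−1.39 ± 0.76, adjusted p 0.204). Among 20 genes of damage signalling and sex chromosome silencing, 7 fell and 3 rose (median −0.69), where 12.0% of all genes fell and 12.5% rose; 1 rose without round spermatid replicate 3. Topbp1, which activates the kinase ATR on unsynapsed chromosomes, stood at 8.15, 8.07, 7.34 and 7.82 in round spermatids and at 10.54 and 9.83 in diplotene (−2.34 ± 0.34). A second probe set of Topbp1 gave −0.935 and did not pass (adjusted p 0.1885). Rad1, of the checkpoint clamp, stood at 3.54, 5.46, 3.94 and 4.44 in round spermatids and at 7.04 and 7.52 in diplotene (−2.94 ± 0.58). Mdc1, which spreads the damage mark over the sex chromosomes, stood at 9.01, 8.93, 9.82 and 9.65 in round spermatids and at 10.66 and 10.54 in diplotene (−1.25 ± 0.36). No round spermatid array reached the diplotene level of these 3 genes. Atr (−1.24 ± 0.23), Rnf8 (−1.42 ± 0.25), Rad9b (−1.79 ± 0.30) and Uimc1 (−1.70 ± 0.45) fell, and Chek1 (1.68 ± 0.35; further probe sets 0.05 to 0.44, none past the test), Scml2 (1.28 ± 0.44; second probe set −0.06) and Rad17 (1.04 ± 0.27) rose. Helq, Exo1, Brca1, Mdc1, Uimc1 and Rad17 no longer passed once diplotene replicate 1 was left out (adjusted p 0.0715 to 0.655). Mdc1 and Scml2 lost the call without diplotene replicate 2 (0.0648 to 0.746). Scml2 did so without round spermatid replicate 1 (0.084). Exo1 and Scml2 lost the call without round spermatid replicate 2 (0.0654 to 0.0874). Exo1, Scml2 and Rad17 did so without round spermatid replicate 3 (0.0232 to 0.0909, or a change under 1). Exo1 and Rad17 lost the call without round spermatid replicate 4 (0.0199 to 0.0831, or a change under 1).

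RNAs of the division machinery that passed changed in both directions. Of 31 division kinases, cyclins and checkpoint genes, 5 fell and 3 rose (median 0.03), and of 32 kinetochore, spindle and cytokinesis genes 2 fell and 2 rose (median −0.03), against 24.4% of all genes changed. Without diplotene replicate 1, 3 of the 31 fell, and without diplotene replicate 2, 4 of the 32 did. Ccna1, the cyclin needed for entry into the first division, stood at 11.93, 12.61, 13.00 and 12.94 in round spermatids and at 11.09 and 12.26 in diplotene, with overlap (0.95 ± 0.77, adjusted p 0.427). Ccnb2 (0.68 ± 0.47) and the meiotic Aurora kinase gene Aurkc (−0.19 ± 0.46) did not pass either. Cks2, a small partner of cyclin-dependent kinases, stood at 11.83, 12.02, 11.99 and 11.44 in round spermatids and at 14.48 and 13.96 in diplotene (−2.40 ± 0.28, adjusted p 3.09e-05). Cdk2, which also sits on meiotic telomeres, stood at 7.03, 8.19, 8.02 and 7.81 in round spermatids and at 10.10 and 10.54 in diplotene (−2.56 ± 0.47). Mad2l1, of the spindle checkpoint, stood at 7.56, 7.05, 6.88 and 6.05 in round spermatids and at 9.43 and 9.05 in diplotene (−2.35 ± 0.31). These 3 fell by more than the whole spread within either group. Plk4 (−1.43 ± 0.31; further probe sets 0.20 and 0.50) and Fbxo5 (−1.39 ± 0.44) fell as well. The genes that rose encode activators of division: the phosphatases Cdc25c (2.11 ± 0.32) and Cdc25a (1.60 ± 0.24) and the kinase Plk1 (1.51 ± 0.34). Sgo2a, the shugoshin that protects centromeric cohesin, stood at 7.82, 7.91, 7.83 and 7.64 in round spermatids and at 9.61 and 9.33 in diplotene (−1.67 ± 0.26). Kif11 fell (−1.25 ± 0.33), though a second probe set did not (0.79), and Kif23, of the cytokinetic midzone (1.53 ± 0.26), and Cenpe (1.39 ± 0.30) rose. Plk4, Fbxo5, Plk1, Kif11 and Cenpe did not pass without diplotene replicate 1 (adjusted p 0.0659 to 0.42). Fbxo5 lost the call without round spermatid replicate 2 (0.0658). Fbxo5 did so without round spermatid replicate 3 (0.0569).

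Enzymes of histone acetylation were followed because the series concerns acetylated histones. Of 20 histone acetyltransferase genes, 4 rose and 4 fell (median −0.15), against 24.4% of all genes changed. With probe sets averaged 3 rose and none fell, without diplotene replicate 1, 2 rose, and without diplotene replicate 2, 2 fell. Kat2b, for the acetyltransferase PCAF, stood at 9.55, 9.64, 9.53 and 9.43 in round spermatids and at 7.21 and 7.42 in diplotene (2.22 ± 0.37, adjusted p 3.85e-04). Kat6a, for MOZ, stood at 7.05, 6.13, 6.25 and 5.77 in round spermatids and at 8.94 and 8.30 in diplotene (−2.32 ± 0.37). The arrays of each gene did not overlap. Kat6b (−1.33 ± 0.35), Naa40 (−1.28 ± 0.44) and Gtf3c4 (−1.09 ± 0.23) fell, Hat1 (1.10 ± 0.29) and Atat1, an acetyltransferase of tubulin (1.27 ± 0.37), rose, and Ep300 (0.31 ± 0.27) and Crebbp (0.67 ± 0.29) did not pass. Second probe sets of Kat6a (0.04), Kat6b (0.30), Gtf3c4 (0.54) and Crebbp (−0.61) lay the other way without passing. Of 16 deacetylase genes 2 rose, Hdac11 (3.10 ± 0.60) and Hdac5 (2.32 ± 0.49), and 3 fell, Sirt7, Sirt1 (−1.80 ± 0.30) and Sirt5 (−1.69 ± 0.40), with a median of 0.08. Without round spermatid replicate 1, 6 of the 16 fell. Sirt1 stood at 8.19, 8.84, 8.72 and 8.12 in round spermatids and at 10.30 and 10.24 in diplotene, without overlap. Naa40, Hat1, Atat1, Sirt5 and Hdac11 no longer passed once diplotene replicate 1 was left out (adjusted p 0.0595 to 0.453). Kat6b, Naa40 and Hat1 lost the call without diplotene replicate 2 (0.0592 to 0.212). Naa40 did so without round spermatid replicate 1 (0.0868). Atat1 lost the call without round spermatid replicate 3 (0.0501).

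Bromodomain genes, whose products read acetylated lysines, had 3 rises and 5 falls among 27 (median −0.17), against 24.4% of all genes changed. With probe sets averaged 1 rose and 3 fell, and 1 rose without diplotene replicate 1. Baz1a, a remodelling subunit, stood at 9.90, 10.23, 10.04 and 10.72 in round spermatids and at 12.39 and 12.44 in diplotene (−2.19 ± 0.32). Phip (−2.30 ± 0.51), Atad2b (−2.18 ± 0.27) and Baz2b (−2.09 ± 0.30; second probe set 0.16) fell by similar amounts. Brdt, the testis reader of acetylated histones in spermatids, overlapped between groups, at 11.40, 11.79, 12.05 and 11.79 in round spermatids and 11.57 and 11.80 in diplotene (0.07 ± 0.39), and a second probe set gave −1.22 without passing. Of 16 regulators of histone removal, 4 rose and 3 fell (median 0.11); 1 rose with probe sets averaged. Cdyl, a chromodomain protein, stood at 10.57, 10.40, 10.03 and 10.03 in round spermatids and at 7.73 and 8.30 in diplotene (2.24 ± 0.37), while 2 further probe sets gave −0.70 and −0.00. The remodeller gene Chd5 (2.12 ± 0.41) and the X-linked ubiquitin enzymes Ube2a (2.32 ± 0.63) and Huwe1 (1.66 ± 0.34) rose, though a second probe set of Ube2a gave 0.22 and the other 4 of Huwe1 gave 0.03 to 0.10, none past the test. Psma8, the testis proteasome subunit (−1.58 ± 0.37), Rnf8 and Parp2 (−1.25 ± 0.23) fell. Phip did not pass without diplotene replicate 1 (adjusted p 0.0524). Ube2a and Psma8 lost the call without diplotene replicate 2 (0.0568 to 0.116).

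With all arrays in the fit, the X-linked genes that passed had all risen. Of 419 tested, 129 rose (30.8%) and 0 fell by limma, while among 12584 autosomal genes 1485 rose (11.8%) and 1557 fell (12.4%). At an unadjusted limma p below 0.05, with no minimum change, 151 X-linked genes were higher and 3 lower. On single autosomes the share that rose ran from 8.30% on chromosome 11 to 15.4% on chromosome 13. The median change was 0.29 on the X and between −0.10 and 0.06 on the autosomes. Counts of X-linked genes that fell depended on the arrays: 8 fell without diplotene replicate 2 and 7 without round spermatid replicate 1, and 0 or 1 without any other single array; 84 rose without diplotene replicate 2. By overlap of arrays alone, 151 X-linked genes (36.0%) were higher and 2 (0.477%) lower in all round spermatid arrays, against 21.3% and 21.8% of autosomal genes. X-linked genes below log2 4 in all arrays of a group numbered 76 in round spermatids and 138 in diplotene, of 419. Among the 12584 autosomal genes 954 and 1516 were. A gene at background in diplotene has no room to fall, so a smaller share of X-linked than of autosomal genes could fall. A further limit is the filter, which 21 X-linked genes low in spermatogonia passed only with round spermatid arrays.

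**Figure D4:**
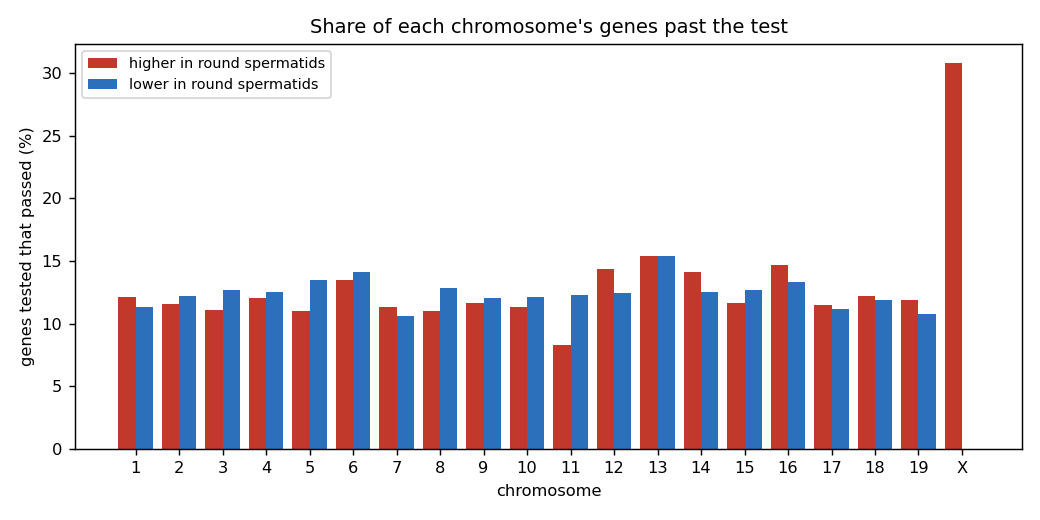
Share of the tested genes of each autosome and of the X that rose (red, left bar) or fell (blue, right bar) in round spermatids relative to diplotene. On the X 30.8% rose and 0 fell, while on autosomes between 8.30% and 15.4% rose; the Y, with 7 genes tested, is not drawn.

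The X chromosome as a whole stayed low. The gap between the median X-linked and the median autosomal level was −1.90, −2.86, −2.70 and −2.66 in the 4 round spermatid arrays and −2.85 and −3.48 in the diplotene arrays, so the groups overlapped. The mean was −2.53 ± 0.43 in round spermatids (SD, n = 4) and −3.17 ± 0.45 in diplotene (SD, n = 2), a difference of 0.63 with a two-sided exact permutation p of 0.267; 4 against 2 arrays cannot go below 0.133. In spermatogonia the value lay between −0.63 and −0.13. Round spermatid replicate 1 was the least negative, and it also had the highest Sertoli cell markers of its group; the part of those cells in it was not tested. The difference was 0.95 without diplotene replicate 1 and without diplotene replicate 2 it was 0.32, and a single array then gives no test. Without round spermatid replicate 1 it was 0.43. It was 0.27 with no filter, 0.42 with a pseudocount of 16 and 1.11 over genes with a single probe set.

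**Figure D5:**
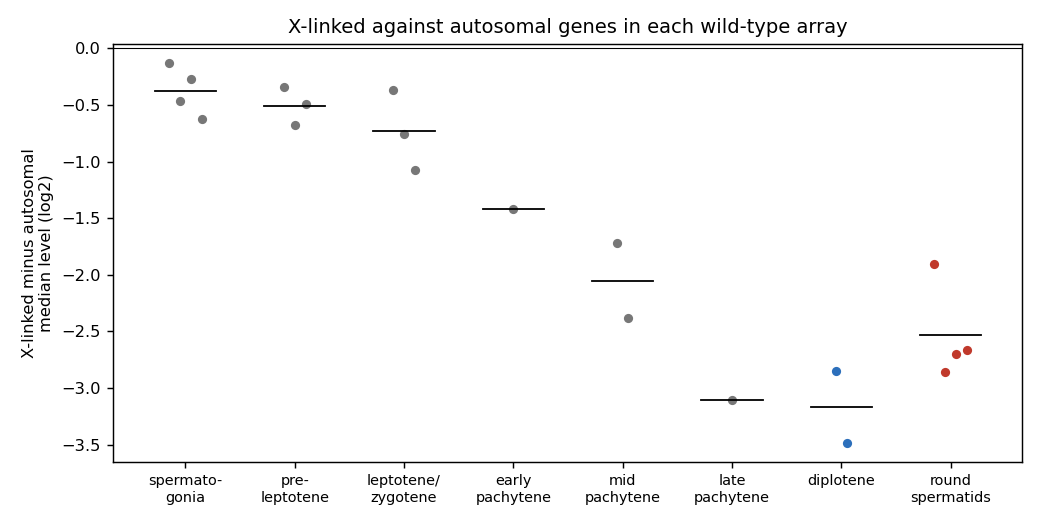
Median log2 level of X-linked genes after subtraction of the autosomal median, in each of the 20 wild-type arrays, by fraction in the order of development; points are arrays and bars are means. Round spermatids (red) lie between −2.86 and −1.90 and diplotene (blue) at −2.85 and −3.48, while the lowest of the spermatogonia arrays is at −0.63.

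The X-linked rises were split by expression before meiosis. Of 56 X-linked genes averaging below log2 4 in spermatogonia, 34 rose (60.7%) with a median change of 2.00; among 1735 such autosomal genes 452 did (26.1%; median 0.25). These shares are not free of the filter, since a gene low in spermatogonia was tested only if other arrays reached log2 4: 21 of the 56 and 523 of the 1735 needed round spermatid arrays for it. Among those that reached it in 2 of the 16 other arrays, 20 of 35 X-linked genes rose (57.1%) and 205 of 1212 autosomal genes did (16.9%). Of the 363 X-linked genes at or above log2 4 in spermatogonia, 95 rose (26.2%) with a median change of 0.22, against 1033 of 10849 autosomal genes (9.52%; median −0.08). Their median level was 4.80 in round spermatids, 4.55 in diplotene and 7.94 in spermatogonia, so as a set they remained below their level before meiosis by a median of 2.69. The matching autosomal genes had median levels of 7.90 in round spermatids, 8.03 in diplotene and 8.26 in spermatogonia.

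The largest X-linked rises were of genes at or near background in diplotene. Actrt1 stood at 7.92, 7.14, 7.28 and 5.76 in round spermatids and at 3.04 and 3.49 in diplotene. Samt3 stood at 7.32, 7.38, 7.23 and 5.59 in round spermatids and at 2.92 and 4.11 in diplotene (3.37 ± 0.42). Dusp21, a dual-specificity phosphatase gene, stood at 8.06, 7.81, 8.39 and 7.12 in round spermatids and at 3.86 and 5.15 in diplotene (3.34 ± 0.38, adjusted p 2.42e-05). All 3 kept their groups apart, with round spermatid replicate 4 the lowest of its group each time. Prame (3.31 ± 0.34, at least 1.82) and the membrane protein gene Xk (3.29 ± 0.30, at least 2.70) completed the 5 largest. Of 15 X-linked spermatid genes 9 rose and none fell (median 2.32), where 12.5% of all genes tested and 30.8% of X-linked ones rose. Among the 9 were Fthl17a, of the ferritin heavy chain family (2.97 ± 0.48), and Tex13a (2.62 ± 0.80), while Tex13b (0.00 ± 0.45) and Rhox13 (0.06 ± 0.70) did not pass. Samt, Fthl17 and Cypt genes belong to families of close copies, and whether their probe sets tell the copies apart was not tested. Without diplotene replicate 1, 3 of the 15 rose, and without diplotene replicate 2, 3 did. Actrt1 and Tex13a no longer passed once diplotene replicate 1 was left out (adjusted p 0.106 to 0.155). Actrt1 and Tex13a lost the call without diplotene replicate 2 (0.0503 to 0.0738). Tex13a did so without round spermatid replicate 1 (0.0511).

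X-linked housekeeping genes with an autosomal retrocopy that serves in meiosis, when the X is silent, gave 1 rise in 7 and no fall (median −0.13), and their retrocopies 1 in 8 and no fall (median 0.02). Utp14a, an X-linked gene for ribosome assembly, stood at 7.35, 6.62, 6.43 and 5.86 in round spermatids and at 4.33 and 3.82 in diplotene (2.49 ± 0.32), and its retrocopy Utp14b rose too (1.19 ± 0.30). Pgk1, the X-linked glycolytic kinase gene, overlapped between groups, at 7.61, 6.64, 6.32 and 6.70 in round spermatids and 7.03 and 7.00 in diplotene (−0.20 ± 0.33). Its retrocopy Pgk2 was higher in every round spermatid array, at 13.44, 13.65, 13.76 and 13.47 against 11.97 and 12.78 in diplotene, and did not pass (1.21 ± 0.66, adjusted p 0.204). Of 6 Y-linked genes listed 4 rose and none fell (median 1.84), where 12.5% of all genes tested rose and 12.0% fell. Eif2s3y, a translation initiation factor gene, stood at 9.68, 9.08, 8.71 and 8.89 in round spermatids and at 7.16 and 6.05 in diplotene (2.49 ± 0.40). Zfy2, a zinc finger gene needed for meiosis and sperm formation, stood at 8.54, 8.12, 7.94 and 7.97 in round spermatids and at 5.07 and 6.51 in diplotene (2.35 ± 0.43). Usp9y (2.47 ± 0.37) and Uba1y (1.33 ± 0.36) rose too, and in all 4 genes every round spermatid array was above both diplotene arrays. Utp14b did not pass without diplotene replicate 1 (adjusted p 0.0606). Utp14b and Uba1y lost the call without diplotene replicate 2 (0.0537 to 0.263).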

How the data were processed

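The deposited values are intensity on a linear scale, summarised per probe set by the authors with GCRMA, per the submitters' processing notes; no version or settings are given there. The scale was read from the values, 1.48 to 107451. They were taken as log2(value + 1). Of 45037 probe sets, 34945 had exactly 1 gene symbol in the platform annotation, 932 had several and 9160 were not listed; 34741 were joined to RefSeq of GRCm38.p6 for symbol and chromosome. Each of 18193 genes was represented by its brightest probe set (highest mean of the 20 wild-type arrays), and 13087 genes at log2 of at least 4 in at least 2 arrays were tested.

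limma 3.58.1 in R 4.3.3 fitted a mean per fraction over the 20 wild-type arrays, so that the spread is shared with the other fractions, and round spermatids were contrasted with diplotene, with Benjamini-Hochberg adjustment over 13087 genes. The script was tested on simulated data. The X-linked minus autosomal median was compared by a two-sided exact permutation test over the 6 arrays with scipy 1.17.1. The number of arrays limits the precision.

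The gene lists (34, with 652 entries, 578 on the array, 510 different genes tested) and the comparison itself were chosen with earlier results of these data known, and no list was tested. A rule named 140 genes: the 10 largest rises and 10 largest falls without overlap of arrays, leaving out predicted names, the 5 largest each way on the X, up to 4 members per list past the test or 2 given as values where none passed, and 21 genes always looked at, of which Ccnb1 is not analysed here. A further 44 list members were chosen after their values were seen. Alternatives covered the filter, probe set choice, normalization, pseudocount, limma settings, the fold minimum, a fit on the 6 arrays, the replicate number as a block and leaving out each array. Same-numbered arrays of the 2 groups deviated together at r of 0.59 for number 1 and 0.07 for number 2, and the labels do not say that a number marks a shared animal. Round spermatid replicates 3 and 4 deviated with diplotene replicate 2 at 0.48 and 0.27, although their numbers differ. With 2 diplotene arrays, the values for one are those for the other with the sign turned.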

Additional observations from a re-analysis of the deposited data

Results flagged for a closer look

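In 17 of the 185 values looked at (184 genes and the X-linked minus autosomal median), a round spermatid array stood apart from the other 3. The gap from that array to its nearest neighbour, divided by the whole range of the 4, then exceeded Dixon's critical value for 4 samples. Chance alone does this in about 1 of 20 groups. In 10 of the 17 the array was replicate 4. It was low for Fam187a (0.975), Elfn2 (0.843), the X-linked Samt3 (0.917), the remodeller gene Chd5 (0.884), the dynein assembly factor gene Dnaaf6 (0.841), Asz1 of the piRNA pathway (0.834) and Chek1 (0.852), and high for the retrocopy Utp14b (0.865), the Leydig cell gene Star (0.897) and the red cell gene Slc4a1 (0.969). Replicate 1 was high for 4 spermatid genes, the linker histone gene H1f7 (0.862), the kinase gene Tssk1 (0.897), the aldolase gene Aldoart2 (0.877) and the sodium pump gene Atp1a4 (0.927), and low for H2ax (0.972). Replicate 3 was low for Prame (0.910) and high for Tssk3 (0.920). Replicate 1 also had the highest Sertoli cell markers of the group and replicate 4 the lowest; their part in these values was not tested.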

How the results depend on the processing

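Among the 184 genes given, no called change reversed its sign under any alternative fit. The signs of the other genes past the test were not compared between fits. Restricted to the 5566 genes with a single probe set, 892 rose and 612 fell; with a minimum change of 2, 916 and 438 did. X-linked genes lower in round spermatids numbered 0, but 1 with array weights, 1 with the replicate block and 1 by arrays that do not overlap with group means at least 1 apart. Leaving out each array in turn gave 840 to 1751 rises, 850 to 1749 falls, 84 to 131 X-linked rises, 0 to 8 X-linked falls and an X-linked minus autosomal difference of 0.32 to 0.95; over the other alternatives this difference, 0.63 in the report, ran from 0.27 (no filter) to 1.11 (single probe set genes). Of the 1690 genes past the test without diplotene replicate 1, 1572 were among the 3199. The remaining alternatives kept the counts within 1.5 times: rises ran from 1332 (probe sets averaged) to 1891 (replicate block) and falls from 1183 (fit on the 6 arrays) to 1855 (no minimum change). Rises were 51.1% of the genes past the test, 55.1% in the fit on the 6 arrays and 54.6% after median centring.

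The replicate number as a block gave 1891 rises and 1734 falls, 3046 genes of them shared with the 3199; the numbers are not known to pair the arrays, since the 2 same-numbered pairs deviated together at 0.59 and 0.07. With the block Acrv1 (2.18, adjusted p 0.0106) and Spo11 (−1.63, adjusted p 0.00301) passed. Across the 184 genes given, 3324 values under alternatives kept their side of the test, 248 no longer passed and 16 newly passed. The X-linked minus autosomal difference was not recomputed where a setting changes the test alone. The 2 diplotene arrays carry every change, and the spread is shared with other fractions. GCRMA intensities below log2 4 have little meaning, so changes there are bounds, and probe sets of 1 gene can disagree.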
